A study of Mus musculus with 3 samples.

Results

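Fatty acid synthesis and lipid droplet genes were followed in mouse mammary tumors made to over-express GATA-3, a transcription factor of the luminal lineage of the mammary gland. The 10 genes were Srebf1, Acly, Acaca, Fasn, Elovl6, Scd1, Scd2, Dgat1, Dgat2 and Plin2, and every probe row that the platform annotation assigns to them was taken. This gave 9 probe rows, 1 each for 9 of the 10 genes, out of 15056 named genes. The symbol of Acaca, which encodes the acetyl-CoA carboxylase that makes malonyl-CoA, was on no annotated probe, so this gene was not analysed here.

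Each of the 3 two-colour arrays compared, per the labels, RNA of an outgrowth of MMTV-PyMT carcinoma cells that had received a GATA-3 retrovirus (Cy5) with RNA of an outgrowth of cells that had received the vector alone (Cy3). The vector carries GFP behind an IRES, the viral oncogene is driven by the MMTV promoter in donor and control cells alike, and both kinds of cells were grown for 6 weeks in cleared fat pads of wild-type mice, so that a tumor also holds host cells. The sources used here do not say whether the arrays held separate animals or a common control, so p-values cover the spread between arrays alone, which may be technical. Arrays are numbered in accession order as names only; array 1 has one title prefix and arrays 2 and 3 share another.

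Values below are log2 ratios with the array median set to 0, with positive values read as higher in the GATA-3 tumor. That reading is likely from the channel labels but not stated; the single Gata3 probe, at 0.74, 0.86 and 0.79 on arrays 1, 2 and 3, is part of the basis for it (mean 0.80 ± 0.06, SD, n = 3; limma, adjusted p = 0.00307). A Gata3 ratio of this size is common on these arrays. The olfactory and vomeronasal receptor genes described below had a median of 0.62 and reached 1.85. The base of the logarithm is also taken, not given. The dyes were never exchanged, so a probe's own dye effect and a difference between the tumors enter a ratio together. Since channel intensities were not used here, neither the level of a gene nor the presence of a cell type can be read from the values.

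In lipogenic cells, ATP citrate lyase (Acly) turns cytosolic citrate into acetyl-CoA, acetyl-CoA carboxylase makes malonyl-CoA from it, and fatty acid synthase (Fasn) builds palmitate from both. Elovl6 lengthens palmitate, the stearoyl-CoA desaturases put in the first double bond, and the DGAT enzymes join the acyl chains to diacylglycerol to form triglyceride. Triglyceride is stored in droplets coated by perilipins such as Plin2, which in the mammary gland also takes part in milk fat secretion. Srebf1 encodes the membrane-bound factor SREBP-1, which is cleaved and then activates genes of this pathway. These enzymes are known to be abundant in the lactating gland and raised in many carcinomas.

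The genes did not move one way. Of the 9 measured genes, 2 were higher (Srebf1 and Scd2), 4 were lower (Scd1, Plin2, Acly and Dgat1), and 3 did not pass the threshold (Fasn, Elovl6 and Dgat2). The test was limma's fit of the mean ratio against 0 over all 31059 rows, with a Benjamini-Hochberg adjusted p under 0.05. On these arrays 55.8% of all rows passed it, 31.7% upward and 24.1% downward, so 6 of 9 (66.7%) is close to that background. Fitted probe by probe, 57.3% of 38975 probe rows passed, and the count for these genes was again 6. Their median mean ratio was -0.09, beside 0.02 for all rows. Without array 2 the count was 4 and without array 3 it was 3 (Srebf1, Scd1 and Plin2), while 36.7% and 27.4% of all rows passed.

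**Figure D1:**
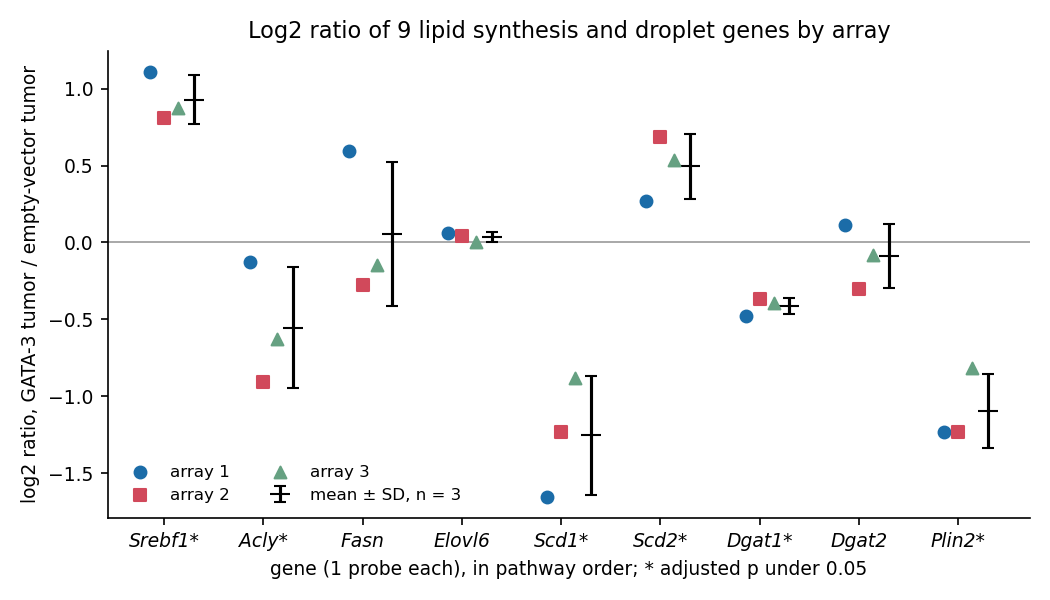
Log2 ratio of the GATA-3 to the control tumor (vertical axis) for the 9 measured genes in pathway order (horizontal axis). Coloured symbols are the 3 arrays and black bars the mean ± SD. Srebf1 lies between 0.81 and 1.11, Scd1 and Plin2 lie below -0.81 on each array, and Fasn and Dgat2 have points on both sides of 0.

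Promoter windows from RefSeq (build GRCm38.p6) are given before the values of each gene. Windows were matched by symbol for 6 of the 10 genes, namely Srebf1, Acaca, Acly, Fasn, Elovl6 and Plin2, giving 8 windows because Srebf1 has 3 annotated starts; those of Scd1, Scd2, Dgat1 and Dgat2 were not used here. Each sequence is the 250 bases before the start, 5′ to 3′ on the strand of the gene, and capitals mark matches of the motifs named below it. They are shown because Srebf1 was the highest of the genes, Plin2 and Acly were among the lower ones, and Srebf1 has 3 annotated starts but 1 probe. Which of its transcripts that probe detects is not known here, since probe sequences were not used.
Srebf1, outermost start, chr11:60222582-60222831, minus strand: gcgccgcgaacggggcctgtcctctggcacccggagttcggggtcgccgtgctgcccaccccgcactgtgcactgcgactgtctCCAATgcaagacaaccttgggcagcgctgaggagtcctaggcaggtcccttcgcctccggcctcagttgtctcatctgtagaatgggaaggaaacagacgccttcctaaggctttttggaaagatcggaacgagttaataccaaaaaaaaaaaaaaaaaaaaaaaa
Srebf1, middle start, chr11:60220628-60220877, minus strand: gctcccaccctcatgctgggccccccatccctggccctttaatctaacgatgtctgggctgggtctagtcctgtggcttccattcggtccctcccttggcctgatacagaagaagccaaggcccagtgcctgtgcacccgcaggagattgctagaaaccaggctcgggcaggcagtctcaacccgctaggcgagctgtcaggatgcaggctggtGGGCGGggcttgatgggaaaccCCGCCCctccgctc
Srebf1, innermost start, chr11:60210472-60210721, minus strand: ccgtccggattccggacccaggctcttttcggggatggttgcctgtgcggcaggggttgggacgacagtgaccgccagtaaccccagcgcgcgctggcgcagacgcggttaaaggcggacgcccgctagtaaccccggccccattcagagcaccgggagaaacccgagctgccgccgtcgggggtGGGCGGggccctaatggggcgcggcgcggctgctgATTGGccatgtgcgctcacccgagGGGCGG
Acly, chr11:100528001-100528250, minus strand: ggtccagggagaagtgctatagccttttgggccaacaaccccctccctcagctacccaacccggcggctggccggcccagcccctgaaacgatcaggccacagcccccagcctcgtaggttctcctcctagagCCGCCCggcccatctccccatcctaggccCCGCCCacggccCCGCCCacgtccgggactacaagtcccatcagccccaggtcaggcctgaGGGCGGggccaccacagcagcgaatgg
Plin2, chr4:86670060-86670309, minus strand: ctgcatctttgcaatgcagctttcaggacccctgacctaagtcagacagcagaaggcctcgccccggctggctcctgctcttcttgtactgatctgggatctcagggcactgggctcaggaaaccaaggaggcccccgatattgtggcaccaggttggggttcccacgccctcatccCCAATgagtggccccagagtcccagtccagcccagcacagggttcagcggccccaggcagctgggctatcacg

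The motifs were searched on both strands, only as spelled here, with N as any base. AGATAA is bound by GATA factors, TCACNCCAC is a sterol regulatory element and CACGTG an E-box. CCAAT is bound by NF-Y and GGGCGG by Sp1. Matches on opposite strands may overlap, as they do within the Fasn window, where CCAAT matched 3 times. AGATAA was in 0 of the 8 windows and in 9.99% of all 32851 windows of this length. TCACNCCAC was likewise in 0 of 8 and in 1.05% of all, and CACGTG in 0 of 8 and in 6.02%. With so few windows, 0 of 8 cannot show that a motif is rarer here. The letters CCAAT were found in 4 of the 8 windows, those of Plin2 and Fasn and the outermost and innermost of Srebf1, against 33.8% of all. GGGCGG was found in 3, with 4 matches before Acly and 2 before each of the middle and innermost Srebf1 starts, against 32.7% of all. The G and C content was 61.6% before Plin2, 68.8% before Acly, 54.4%, 63.2% and 70.8% before the Srebf1 starts in the order printed, and 52.4% in the median window. A match is a description of these letters. The lack of one says nothing of other spellings of a site in these windows, which were not searched, or of a factor's action elsewhere.

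Srebf1, the regulator, had the highest ratios of the 9 genes on each array. They were 1.11 on array 1, 0.81 on array 2 and 0.87 on array 3. All 3 arrays lay well above the array median, with array 1 the highest. The mean was 0.93 ± 0.16 (SD, n = 3), a 1.91-fold higher signal (limma, adjusted p = 0.00307), and the call was kept without each array in turn. On the same scale 7.14% of all rows were at least as high. The RNA does not report cleavage of the protein.

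Among the other regulators of lipid synthesis, 6 of 19 measured genes were higher and 3 lower, with a list median of -0.08. The 9 called genes became 3 without array 3 and 6 without array 2. Of all rows, 55.8% passed with all arrays, 27.4% without array 3 and 36.7% without array 2. The largest negative ratio was that of Thrsp (Spot 14), a nuclear protein that promotes lipogenesis in mammary epithelium and liver, at -1.52, -1.59 and -1.36. Its mean was -1.49 ± 0.12 (limma, adjusted p = 0.00307), below that of every measured member. Its paralog Mid1ip1, which helps acetyl-CoA carboxylase to polymerise, went the other way at 0.57 ± 0.18 but lost the call without array 3. The kinase gene Akt1 was higher (1.004 ± 0.386) and Stk11, which encodes the kinase LKB1 upstream of AMPK, was lower (-0.52 ± 0.10). Genes of the machinery that processes SREBP were chosen after their values were seen. Scap, the escort protein, was lower (-0.34 ± 0.06), and Insig1 (0.25 ± 0.06) and Insig2 (0.38 ± 0.21), which retain it, and the site-2 protease gene Mbtps2 (0.41 ± 0.03) were higher. All 4 lost the call without array 3, and Insig1, Insig2 and Mbtps2 each had probes of both signs. Scap, Insig1 and Insig2 also lost it without array 2, and Insig1 without array 1. The site-1 protease gene Mbtps1 (-0.19 ± 0.08), also with probes of both signs, did not pass (limma, adjusted p = 0.107).

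Acly, the source of cytosolic acetyl-CoA, was lower but by unequal amounts. Its ratios were -0.13, -0.91 and -0.63 on arrays 1, 2 and 3. Array 1 was close to the median and arrays 2 and 3 clearly below it. The mean of -0.55 ± 0.39 corresponds to a 1.47-fold lower signal (limma, adjusted p = 0.0359). The call was lost without array 2 (-0.38, adjusted p = 0.118) and without array 3 (-0.52, adjusted p = 0.15), whereas arrays 2 and 3 alone gave -0.77 (adjusted p = 0.00292). Its spread between arrays was larger than that of 89.4% of rows.

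Fasn, the multi-domain synthase itself, gave opposite signs by array. Its ratios were 0.59 on array 1, -0.27 on array 2 and -0.15 on array 3. Array 1 was high and the others were slightly low, and the mean of 0.06 ± 0.47 did not pass (limma, adjusted p = 0.804). Without array 1 the mean was -0.21 (adjusted p = 0.096). The distance of 0.80 between array 1 and the mean of arrays 2 and 3 was the largest of the 9 genes, and 93.1% of rows had a smaller or equal spread. Acly lay below Fasn on each array, at differences of -0.72, -0.63 and -0.48, so both were higher on array 1 than on the others while their difference moved less (-0.61 ± 0.12).

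A list for the supply of acetyl-CoA, malonyl-CoA and NADPH was split, with 4 of 14 measured genes higher, 5 lower and a median of -0.11. Not all of its genes feed Fasn, since it also holds acyl-CoA synthetases and a mitochondrial ketoacyl synthase. G6pdx and Pgd, which were listed for NADPH, were not among the measured genes. The pentose phosphate enzymes transaldolase (Taldo1, -1.13 ± 0.31) and transketolase (Tkt, -0.74 ± 0.12, both probes negative) had the largest negative ratios. Acsl3, an acyl-CoA synthetase found on lipid droplets, was higher at 0.96 ± 0.16, and the mitochondrial ketoacyl synthase gene Oxsm at 0.54 ± 0.19. Acacb, the mitochondria-associated isoform of the carboxylase whose cytosolic form was not measured, was chosen after its value was seen. It was lower at -0.52, -0.92 and -0.66, with a mean of -0.70 ± 0.20 and both probes negative (limma, adjusted p = 0.00546).

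Elovl6, the elongase of palmitate, stayed next to the array median. Its ratios were 0.06, 0.04 and 0.003 on arrays 1, 2 and 3. No array departed from the others, and only 3.23% of rows had as small a spread. The mean was 0.04 ± 0.03 (limma, adjusted p = 0.709). With the authors' centring kept it was -0.02, so its sign depends on the centring.

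The stearoyl-CoA desaturase genes diverged. Scd1, the main desaturase of lipogenic tissues, gave -1.65, -1.23 and -0.88 on arrays 1, 2 and 3. Each array was far below the median, array 1 the furthest. The mean of -1.26 ± 0.39 was the lowest of the 9 genes, a 2.39-fold lower signal (limma, adjusted p = 0.00366), and 0.856% of all rows were as low. The call was kept without each array, at means from -1.44 to -1.06.

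Scd2, an isoform known from brain and from newborn tissues, was higher. Its ratios were 0.27 on array 1, 0.68 on array 2 and 0.54 on array 3. All arrays were above the median, array 1 the least. The mean was 0.50 ± 0.21, a 1.41-fold higher signal (limma, adjusted p = 0.0153), but the call was lost without array 2 (0.40, adjusted p = 0.0661) and without array 3 (0.48, adjusted p = 0.098).

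Within each array Scd1 lay below Scd2, at differences of -1.92, -1.92 and -1.42. The mean difference of -1.75 ± 0.29 in log2 ratio is a description, since an exact sign-flip test on 3 arrays cannot give a two-sided p below 0.25. Scd3 and Scd4, chosen after their values were seen, lie in the same row of neighbouring genes on chromosome 19, in the order Scd3, Scd2, Scd4, Scd1. Scd4 was lower at -0.37 ± 0.09, with both probes negative, but lost the call without array 2 and without array 3. Scd3 gave 0.01, 0.66 and 0.35 (mean 0.34 ± 0.32; limma, adjusted p = 0.0911). These genes are close paralogs and the probe sequences were not used here, so that signal shared between them by cross-hybridisation cannot be told apart from their own.

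Other desaturases and elongases counted 4 higher and 4 lower of 18, with a median of 0.10. The 8 called genes became 4 without array 3, where 27.4% of all rows passed. Fads2, the delta-6 desaturase of polyunsaturated fatty acids, was lower at -0.82 ± 0.20 with both probes negative. The enoyl-CoA reductase gene Tecr was lower at -0.51 ± 0.08, but its probes differed, at -0.99 and -0.03. The dehydratase genes of the same elongation cycle, Hacd2 (0.81 ± 0.08) and Hacd3 (0.80 ± 0.18, both probes positive), were higher. These 4 kept the call without each array.

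Both acyltransferases of the last step to triglyceride were measured. Dgat1, the isoform of broad tissue range, gave -0.48, -0.37 and -0.40 on arrays 1, 2 and 3. The arrays lay close together below the median, and only 9.81% of rows had as small a spread. The mean of -0.41 ± 0.05 is a 1.33-fold lower signal (limma, adjusted p = 0.0104), and the call was lost without array 3 (-0.42, adjusted p = 0.0845). Dgat2, a structurally unrelated enzyme tied to newly made fatty acids, gave 0.11, -0.30 and -0.08, which straddle the median. Its mean was -0.09 ± 0.21 (limma, adjusted p = 0.51), and without array 2 it was 0.02.

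Earlier steps of glycerolipid and phospholipid synthesis counted 5 higher and 6 lower of 21, with a median of -0.05. The 11 called genes became 3 without array 3 and 6 without array 2, where 27.4% and 36.7% of all rows passed. The acyltransferase genes Agpat3 (-0.72 ± 0.36, call lost without array 3) and Gpat3 (-0.66 ± 0.11, all 3 probes negative) were lower. Pcyt1a, the rate-setting enzyme of phosphatidylcholine synthesis, was higher at 0.92 ± 0.18 with both probes positive, and so was Agpat5 at 0.54 ± 0.21.

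Plin2, the droplet coat protein, was the other strongly lower gene. Its ratios were -1.24, -1.23 and -0.82 on arrays 1, 2 and 3. All arrays were far below the median, array 3 the least. The mean of -1.10 ± 0.24 is a 2.14-fold lower signal (limma, adjusted p = 0.00307), 1.66% of all rows were as low, and the call was kept without each array. The difference between Scd1 and Plin2 changed sign between arrays (-0.42, 0.003 and -0.06).

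Of the other droplet and milk fat genes, 4 of 16 were higher and 7 lower, with a median of -0.25. The 11 called genes became 7 without array 2 and 7 without array 3, where 36.7% and 27.4% of all rows passed. Plin5, the perilipin of oxidative tissues, was lower at -1.11 ± 0.34 and G0s2, an inhibitor of adipose triglyceride lipase, at -0.90 ± 0.47. Bscl2, which encodes seipin of the droplet assembly site, was higher at 0.96 ± 0.04, and so was Btn1a1, butyrophilin of the milk fat globule, at 0.78 ± 0.32. The rest of the perilipin family was chosen after its values were seen. Plin3 was lower (-0.56 ± 0.17), Plin4 was higher (0.35 ± 0.07, call lost without array 2 and without array 3), and Plin1, the adipocyte perilipin, gave -0.96, -0.07 and 0.09 (limma, adjusted p = 0.264).

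Genes that release or take up fatty acids had positive list medians. In the lipolysis list 4 of 8 were higher and 1 lower, with a median of 0.32. Its 5 called genes became 2 without array 3, where 27.4% of all rows passed. Hormone-sensitive lipase (Lipe), placed with the adipocyte markers, was lower at -0.39 ± 0.17 (call lost without array 2 and without array 3). Counted here, in an alternative chosen after seeing the data, it gives 4 higher and 2 lower of 9 with a median of 0.19. The lysosomal lipase gene Lipa was at 0.67 ± 0.13, Lipg, the endothelial lipase, at 0.78 ± 0.47 (call lost without array 3) and Mgll, the monoglyceride lipase, at -0.44 ± 0.12 (call lost without array 2 and without array 3). In the uptake and binding list 7 of 11 were higher and 0 lower by limma, with a median of 0.37. At an unadjusted p under 0.05, 0 were lower by limma and 0 in the plain one-sample test, on the same 3 arrays. With adjustment the plain test called 0 genes of the list in either direction, and only 4 of all 31059 rows. The binding protein genes Fabp5 (0.93 ± 0.50, both probes positive, call lost without array 3) and Fabp7 (0.88 ± 0.21) were its highest. The called genes of the uptake and binding list, 63.6% of it, were all higher. Of all rows 31.7% were called higher and 24.1% lower, 55.8% together. Whether the list differs from all rows was not tested. Its 7 called genes became 3 without array 3, where 27.4% of all rows passed. Beta-oxidation genes counted 3 higher and 5 lower of 21, with a median of 0.06. The 8 called genes became 2 without array 3 and 4 without array 2, where 27.4% and 36.7% of all rows passed. They ran from Acaa1b (-0.54 ± 0.05), a peroxisomal thiolase, and Acads (-0.49 ± 0.28, call lost without array 3) to Eci2, an enoyl-CoA isomerase, at 1.14 ± 0.42 and Decr1 (0.39 ± 0.16, call lost without array 2 and without array 3).

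Over all 8 pathway lists 37 of 128 measured genes were higher (28.9%) and 31 lower (24.2%), near the 31.7% and 24.1% of all rows, and the median was -0.04. Of the 50 list genes with 2 or more probes, 26 had probes of both signs. None of the 9 genes described in full has a second probe, so their values have no such check within these arrays.

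**Figure D2:**
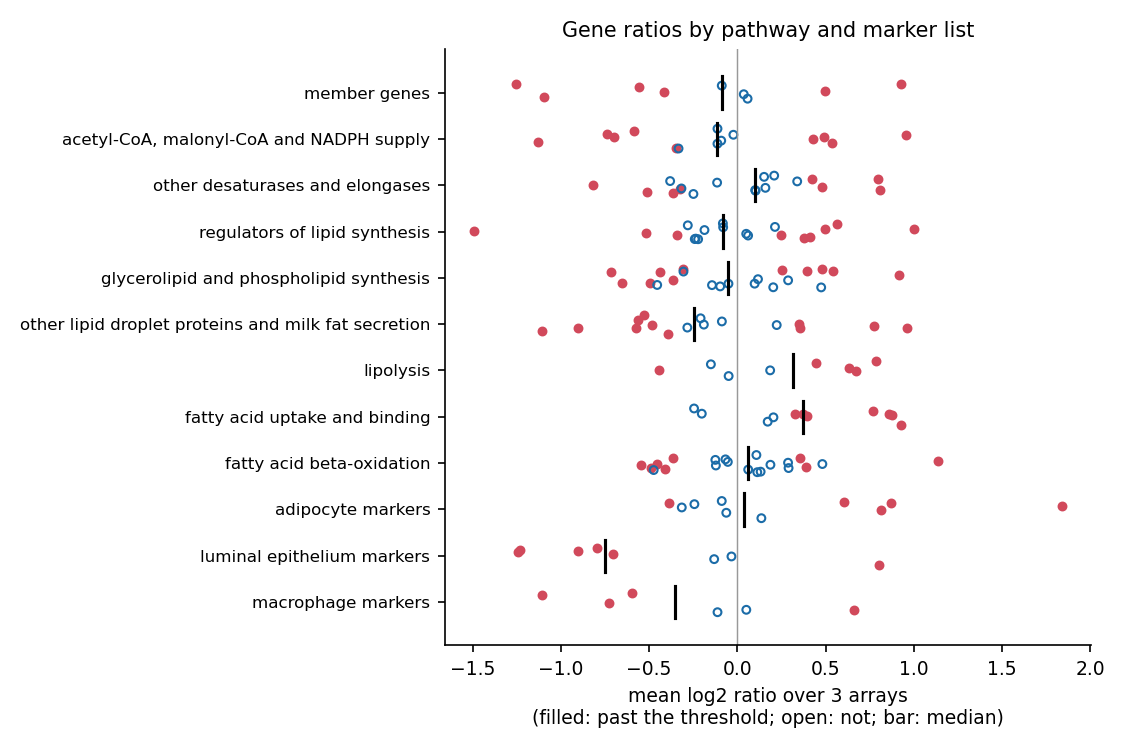
Mean log2 ratio over 3 arrays (horizontal axis) of each gene, by list (rows); filled points passed the threshold, open points did not, and black bars are medians. The 9 genes spread from -1.26 to 0.93, the uptake and binding list has 7 filled points to the right of 0 and none to the left, and luminal markers lie mostly to the left with a median of -0.75.

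Markers of cell types in the tumors were also measured, on arrays where 31.7% of all rows were called higher and 24.1% lower. Of 8 luminal epithelial markers, 5 were lower and 1 higher, with a median of -0.75 and medians of -0.63, -0.91 and -0.52 on arrays 1, 2 and 3; Krt18 was at -1.24 ± 0.20, a size like that of Scd1 and Plin2, and Cdh1 at 0.80 ± 0.05. Of 10 adipocyte markers, 4 were higher and 1 lower, with a median of 0.04. Higher were Fabp4 (1.84 ± 0.15), Retn (0.87 ± 0.14), Lep (0.82 ± 0.61) and Pck1 (0.61 ± 0.12), and Lipe (-0.39 ± 0.17) was lower. Lep and Lipe lost the call without array 2 and without array 3. The other 5 did not pass, among them adiponectin (Adipoq, -0.09 ± 0.13) and Cidec (-0.06 ± 0.16). Of 6 macrophage markers, 1 was higher and 3 lower, with a median of -0.35. In all 6 of 8 luminal, 5 of 10 adipocyte and 4 of 6 macrophage markers were called, beside 55.8% of all rows. The 5 called adipocyte markers became 3 without array 2 and 3 without array 3, where 36.7% and 27.4% of all rows passed. The part of these markers in the ratios of the lipid genes was not tested. In tumor RNA, fewer cells of a type and less RNA per cell cannot be told apart.

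The ratios of receptor genes known from sensory neurons show how wide values run on these arrays. The 976 olfactory and vomeronasal receptor genes had a median of 0.62 and a range of -1.16 to 1.85, and 68.1% were called higher and 5.33% lower. Of them 21.2% were at least as high as Srebf1 and 61.1% as high as Scd2. At the other end, 0 were as low as Scd1, 1 was as low as Plin2, 1.54% were as low as Acly and 3.38% as low as Dgat1. Whether these receptor ratios reflect dim spots was not tested, since intensities were not used here.

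**Figure D3:**
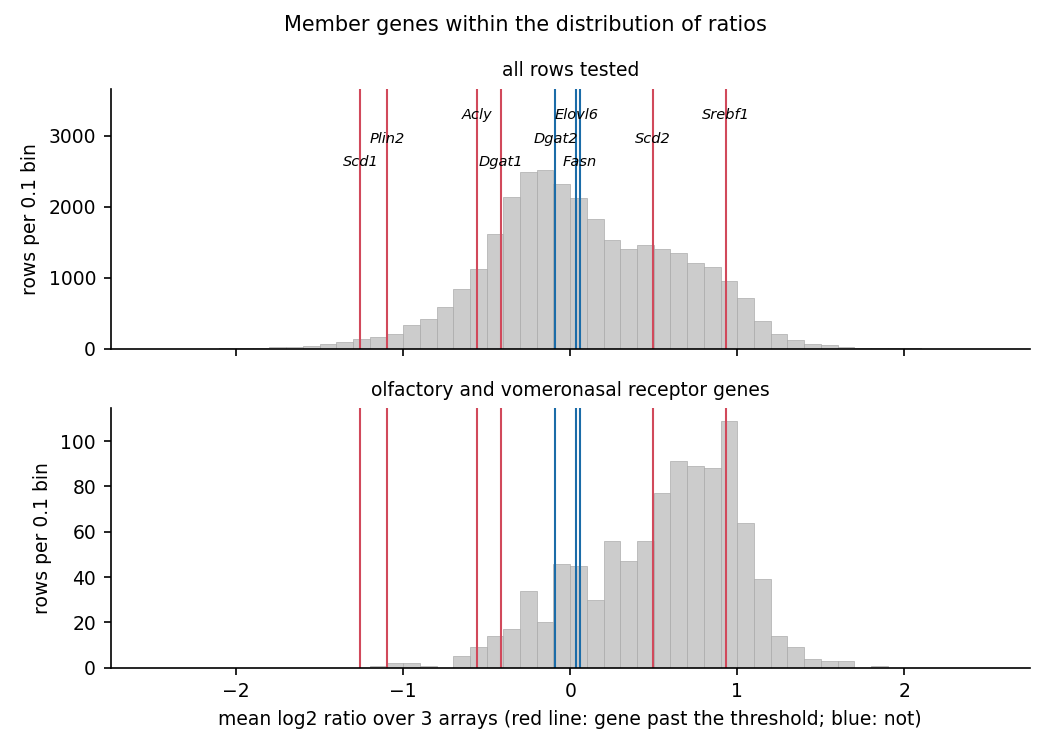
Number of rows per 0.1 bin of mean log2 ratio (horizontal axis) for all 31059 rows (top) and for the 976 receptor genes (bottom), with vertical lines at the 9 lipid genes. Srebf1 and Scd2 fall within the bulk of the receptor genes, Plin2 lies in the lower tail of both distributions, and Scd1 lies in the lower tail of all rows and below every receptor gene.

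Ordered by mean, the genes ran Srebf1, Scd2, Fasn, Elovl6, Dgat2, Dgat1, Acly, Plin2 and Scd1. Srebf1 exceeded Scd2 on each array, by 0.84, 0.12 and 0.34, and Dgat1 lay below Dgat2 at differences of -0.59, -0.07 and -0.32. Acly exceeded Plin2 on each array, by 1.11, 0.33 and 0.19, although their ranges overlap. The differences Scd2 to Fasn, Fasn to Elovl6, Elovl6 to Dgat2, Dgat1 to Acly and Plin2 to Scd1 each changed sign between arrays. The order of these neighbours was thus not the same on each array, and whether they differ was not tested.

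The arrays ranked the genes alike but not equally. Pearson's r over the 9 genes was 0.84 for arrays 1 and 2, 0.86 for 1 and 3, and 0.98 for 2 and 3. Over all rows it was 0.77, 0.78 and 0.95. These values are across genes, not replicates, and the arrays share 1 dye orientation. Array 1 had 4 negative values among the 9 genes and arrays 2 and 3 had 6 each. All 3 arrays gave 1 sign for 7 of the 9 genes, beside 76.3% of all rows.

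**Figure D4:**
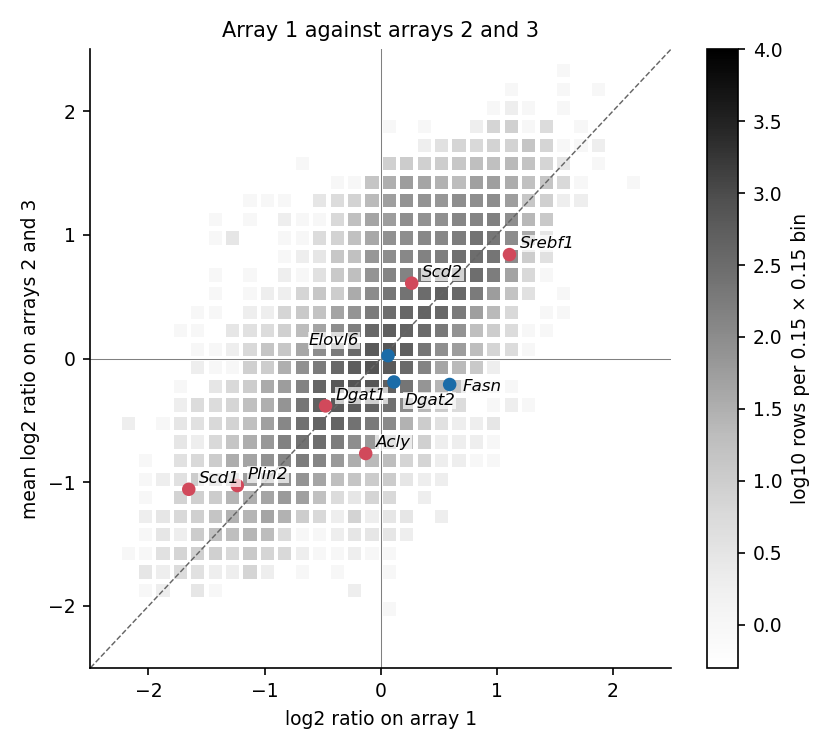
Log2 ratio on array 1 (horizontal axis) against the mean of arrays 2 and 3 (vertical axis) for all rows (grey, log10 number per bin) and the 9 genes (red, past the threshold; blue, not); the dashed line is equality. Fasn and Acly lie to the right of the line by 0.80 and 0.64, Scd1 to the left at -0.60 (array 1 lower), and Dgat1 and Elovl6 on it within 0.10.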

How the data were processed

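RNA was compared on 3 two-colour arrays, each a GATA-3 tumor against an empty-vector tumor (1 group). The deposited values are log ratios for each probe row, taken as log2; the authors' columns had medians of -0.02, -0.07 and -0.07. Not given in the sources used here were scanner, background correction, normalization, base and direction. Each array was centred on its median over 38976 probe rows, of which 22973 carry 1 symbol in the platform annotation. Probes of a symbol were averaged, and 1 missing value dropped its row. The 31059 rows (15056 genes, 16003 unnamed probes) were tested with limma 3.58.1 in R 4.3.3 (intercept-only fit, eBayes, Benjamini-Hochberg), after a test on simulated data. Intensities are unknown, and the number of arrays limits precision.

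The members and lists were chosen with earlier results of these data known. Named by rule were the measured members and Gata3. Of each pathway list, the rule took the 2 largest positive and 2 largest negative called genes with 1 sign on all arrays. Pathway genes outside this rule are said to be chosen afterwards. No rule fixed which markers were named, and they were chosen with their values known. Receptor genes, markers and alternatives (centring, scaling, probe median, robust eBayes, a minimum ratio, a plain test, each array left out) are described in the text.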

Additional observations from a re-analysis of the deposited data

How the results depend on the processing

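The count of 6 genes held with the values as deposited, scaled arrays, the median of a gene's probes, a robust eBayes and without array 1. It was 3 when a log2 ratio beyond 0.2 was required (limma's treat), both by gene and by probe. By gene, 35.5% of all rows passed treat. In the plain one-sample test the count was 0, and only 4 of all 31059 rows passed. At an unadjusted p under 0.05 the plain test had 4 of the 9 genes, beside 14156 of 31059 rows. With each array left out the count ran from 3 to 6, and the share of all rows from 27.4% to 63.6%. The called pathway genes, 68 of 128, were 40 with treat, 0 in the plain test (61 at an unadjusted p under 0.05) and 30 to 78 with each array left out. With treat Acly (-0.55), Dgat1 (-0.41) and Scd2 (0.50) lost the call, at adjusted p of 0.0971, 0.0583 and 0.057. In the plain test, which borrows no variance across rows, Gata3 (0.80), Srebf1 (0.93), Scd2 (0.50), Acly (-0.55), Dgat1 (-0.41), Plin2 (-1.10) and Scd1 (-1.26) lost it, at adjusted p from 0.0553 to 0.207. Means with each array left out ran from -0.77 to -0.38 for Acly, -0.44 to -0.38 for Dgat1 and 0.40 to 0.61 for Scd2. Signs turned only for genes that did not pass: Dgat2 (0.0175 without array 2, by gene and by probe), Elovl6 (-0.0173 as deposited) and Fasn (-0.21 without array 1); with each array left out, Dgat2 ran from -0.19 to 0.02 and Fasn from -0.21 to 0.22. Of the 29 list genes fixed by rule, 7 lost the call without array 3 and 2 of these also when array 2 was left out. No paired analysis was possible because all arrays form 1 group and each value already joins a pair of tumors.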
